A study of Mus musculus with 24 samples.

Results

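The genes described here encode subunits of the mitochondrial respiratory chain. They were the protein-coding genes of the GENCODE M21 annotation whose symbols name subunits of NADH dehydrogenase (Nduf genes of the a, b, c, s and v series), succinate dehydrogenase (Sdha to Sdhd), the cytochrome bc1 complex (Uqcr genes) or cytochrome c oxidase (Cox4 to Cox8 genes), together with every protein-coding gene of the mitochondrial genome. This name rule took 81 of 54432 genes, of which 68 lie in nuclear DNA and 13 in mitochondrial DNA. Of these, 76 passed the filter on low counts and were tested, all 13 mitochondrial genes and 63 nuclear ones. The 5 nuclear genes that did not pass were Ndufa4l2, Cox6a2, Cox6b2, Cox7b2 and Cox8b.

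The measurements came from mpkCCD cells, an immortalised line with features of the principal cells of the mouse cortical collecting duct, labelled as C57BL/6, kidney, wild type and passage 10-11. All cells were grown for 6 days on permeable filters and then held for 24 h in minimal medium, before the vasopressin analog dDAVP or vehicle was added to the basolateral side. Total RNA from cells treated for 3, 6, 12 or 24 h was made into cDNA with the SMART-Seq HT kit, and 3 libraries were sequenced for each of the 8 groups, vehicle and dDAVP at each time. The 24 libraries represent 1 cell line, and the labels do not say whether the 3 libraries of a group came from separate cultures, so p-values measure library-to-library spread only, and that spread may be technical.

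Respiratory chain complexes I, III and IV move electrons from NADH to oxygen and pump protons across the inner mitochondrial membrane, complex II feeds in electrons from succinate without pumping, and ATP synthase, complex V, uses the proton gradient to make ATP. Complexes I, III, IV and V are assembled from subunits of both genomes: mitochondrial DNA encodes hydrophobic core subunits, copied as long transcripts from both strands and then cleaved, whereas the nucleus encodes the other subunits of the catalytic cores and all accessory subunits, gene by gene. All subunits of complex II are nuclear. In the kidney, the chain supplies ATP for the sodium pump and other transport work of the tubule.

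Several mitochondrial genes share sequence with other annotated genes, which bears on what a count per gene can hold. A stretch of nuclear DNA on chromosome 1 holds copies of mitochondrial genes that GENCODE lists as genes of their own. The copy Gm29216 lies at chr1:24615706-24616197 (GRCm38, minus strand) and carries 479 bases identical to the end of mt-Co1, which encodes a catalytic core subunit of complex IV. The sequences below show the start of this copy beside the part of mt-Co1 that faces it, from chrM:6381-6440 and chr1:24616138-24616197, with the 6 of 60 bases that differ in capitals.
mt-Co1: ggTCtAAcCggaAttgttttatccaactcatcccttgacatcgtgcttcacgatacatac
Gm29216: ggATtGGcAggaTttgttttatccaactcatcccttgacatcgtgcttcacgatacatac

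The copy Gm28437 holds 783 bases identical to mt-Co3, another core subunit of complex IV. Over the start of both genes, at chrM:8607-8666 and chr1:24613912-24613971, 0 of 60 bases differ, so a read from this stretch could not be placed by its sequence.
mt-Co3: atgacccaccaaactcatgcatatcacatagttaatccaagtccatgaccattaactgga
Gm28437: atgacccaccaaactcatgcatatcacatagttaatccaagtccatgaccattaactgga

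The deposited counts gave Gm29216 between 25.1 and 33.6% of the counts of the pair it forms with mt-Co1, and Gm28437 between 2.61 and 12.1% of the pair with mt-Co3. The mean level listed for Gm29216 was 4024 TPM (a level corrected for transcript length and scaled to the same total in each library), against 2225 TPM for mt-Co1 itself. In contrast, Gm28661 held at most 0.171% of the pair with mt-Co2 and Gm10925 at most 1.98% of the pair with mt-Atp6, although these copies were also identical to their genes over 681 and 678 bases. The levels of mt-Co1 and mt-Co3 are therefore uncertain. Members of the mitochondrial genome also overlap each other. The 43 bases at chrM:7927-7969 belong both to the end of mt-Atp8 and to the start of mt-Atp6, which encode ATP synthase subunits, and are shown with the start codon of mt-Atp6 in capitals.
mt-Atp8 and mt-Atp6: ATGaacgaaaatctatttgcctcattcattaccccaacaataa

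A further 7 bases are shared by mt-Nd4l and mt-Nd4, and 14 bases by mt-Nd5 and mt-Nd6, which lie on opposite strands. Whether the counting used the strand is not given in the sources used here, so reads in the last overlap cannot be told apart. In all, 33 of the 81 members, 23 of them nuclear, share exon bases with another annotated gene on either strand.

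Depth ranged from 17248060 to 27642311 estimated counts per library. The water channel gene Aqp2, a known target of vasopressin, was at 1.78 to 4.04 TPM in the vehicle libraries and at 56.4 to 100.7 TPM in the dDAVP libraries, which fits the treatment labels. The 6 epithelial markers had means of 39.07 TPM (Cldn4) to 1008 TPM (the keratin Krt18). The 12 principal cell markers had means of 0.256 TPM (Aqp4) to 48.55 TPM (Gata3), with a median of 8.63 TPM. Scnn1b, Elf5, Aqp3 and Scnn1g were at 0.366, 0.816, 2.10 and 2.98 TPM. The intercalated marker Rhcg, at 7.37 TPM, and the muscle marker Tnnt2, at 6.59 TPM, stood above these. The summed markers of intercalated, proximal tubule, loop and distal tubule, stromal and immune, and muscle cells never exceeded 19.1 TPM for a list. The share of counts on 1457 olfactory and vomeronasal receptor genes, which are known from sensory neurons, differed between libraries from 0.135 to 0.901% and is called the receptor share. It averaged 0.629 ± 0.257% (SD, n = 3), 0.526 ± 0.0728%, 0.477 ± 0.285% and 0.226 ± 0.0655% in vehicle at 3, 6, 12 and 24 h, and 0.373 ± 0.121%, 0.196 ± 0.0727%, 0.334 ± 0.0524% and 0.201 ± 0.0442% in dDAVP. A single small RNA gene, Gm24245, took 37.4 to 51.7% of TPM in a library, so a difference in it shifts the TPM of every other gene.

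The mitochondrial members stood above most of the nuclear ones in level. The 13 mitochondrial genes had a median mean level of 1698 TPM, and the 68 nuclear genes a median of 114.1 TPM with a highest value of 663.1 TPM. Of 21809 protein-coding genes ranked by mean TPM, mt-Atp6 was the highest, mt-Co3 ranked 2, mt-Co2 ranked 5, mt-Co1 ranked 9 and mt-Cytb ranked 11, and 7 of the 20 highest were mitochondrial members. Among nuclear members, Uqcr11, a small subunit of complex III, ranked 67, Cox8a ranked 74 and Cox4i1 ranked 78, and 33 nuclear members lay among the 500 highest. In reads, the mitochondrial members held 2.53 to 3.30% of the counts of a library and the nuclear members 0.810 to 0.999%.

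**Figure D1:**
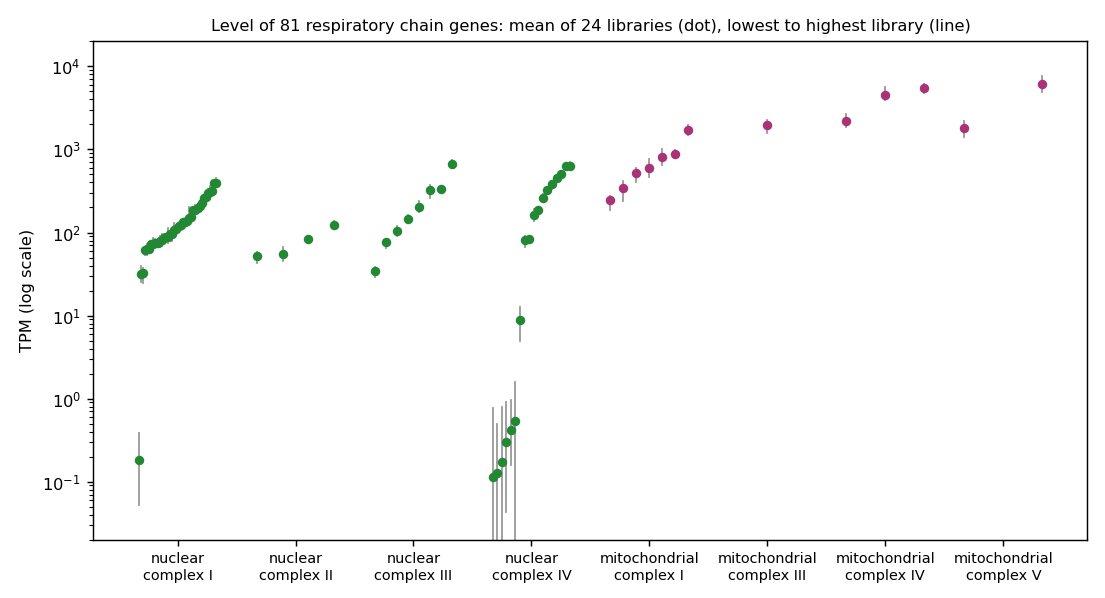
Mean level over 24 libraries of each respiratory chain gene in TPM (log scale), by complex and by genome. Each point is 1 gene. The mitochondrial genes range from 243.7 to 6184 TPM, and the nuclear median is 114.1 TPM.

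Levels varied within each complex. For complex I, the 7 mitochondrial genes ranged from 243.7 TPM for mt-Nd5 to 1698 TPM for mt-Nd1, and the 38 nuclear genes had a median of 114.1 TPM. Among nuclear core subunits, which carry the flavin and the iron-sulphur clusters, the mean level ran from 31.35 TPM for Ndufs1 to 207.7 TPM for Ndufs7. The highest nuclear gene named for this complex was Ndufa4, at 399.4 TPM, whose protein is now assigned to complex IV.

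Complex II had the lowest median of the nuclear sets, 69.34 TPM. Its flavoprotein gene Sdha had a mean level of 51.78 TPM, the iron-sulphur subunit Sdhb 83.26 TPM, and the membrane anchors Sdhc and Sdhd 55.42 and 124.3 TPM. The 8 nuclear genes of complex III had a median level of 174.9 TPM and spanned 34.39 TPM for the core protein Uqcrc2 to 663.1 TPM for Uqcr11, while the Rieske protein gene Uqcrfs1 stood at 77.05 TPM. The mitochondrial partner of these genes, mt-Cytb, which encodes cytochrome b, stood at 1963 TPM. For complex IV, the 3 mitochondrial genes were at 2225 TPM (mt-Co1), 4535 TPM (mt-Co2) and 5560 TPM (mt-Co3). The 18 nuclear genes of that complex had a median of 123.7 TPM, with Cox4i1, Cox5a and Cox5b at 629.6, 257.6 and 327.3 TPM.

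Where a subunit has tissue isoforms, 1 isoform supplied nearly all of the message, though less completely in the Cox7a family. Cox4i1 held at least 99.85% of the Cox4i TPM in each library, and Cox4i2, the isoform known from lung and low oxygen, was at 0.0436 to 0.906 TPM. Cox6a1, the isoform outside striated muscle, held at least 99.9% of its pair, Cox6b1 at least 99.78%, Cox7b at least 98.85%, Cox8a at least 99.62% and Ndufa4 at least 99.9%. The muscle isoforms Cox6a2 and Cox8b were at 0 to 8 and 0 to 4 estimated counts per library. In the Cox7a family, Cox7a2 held 64.7 to 70.0% of TPM and Cox7a1, the isoform known from heart and skeletal muscle, 1.82 to 4.55%. The remaining 27.4 to 31.7% belonged to Cox7a2l, a factor of supercomplex assembly rather than a tissue isoform. Between the tissue isoforms, Cox7a2 was at 170.3 to 205.3 TPM and Cox7a1 at 4.97 to 12.85 TPM.

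Along the mitochondrial genome, the levels listed for neighbouring genes differed although they are copied together. The pairs mt-Atp8 and mt-Atp6, and mt-Nd4l and mt-Nd4, overlap on the same strand. Differing values within such a pair need not be levels of separate messages. In map order, the mean level was 1698 TPM for mt-Nd1, 806.4 TPM for mt-Nd2, 2225 TPM for mt-Co1, 4535 TPM for mt-Co2, 1798 TPM for mt-Atp8, 6184 TPM for mt-Atp6 and 5560 TPM for mt-Co3. After these came mt-Nd3 at 592.5 TPM, mt-Nd4l at 517.5 TPM, mt-Nd4 at 873.9 TPM and mt-Nd5 at 243.7 TPM, with mt-Cytb at 1963 TPM at the end. The only member on the other strand, mt-Nd6, stood at 342.8 TPM. The 3 shortest genes, mt-Atp8, mt-Nd4l and mt-Nd3, have 204, 297 and 348 bases, and TPM of so short a transcript depends strongly on the length correction of the counter.

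**Figure D2:**
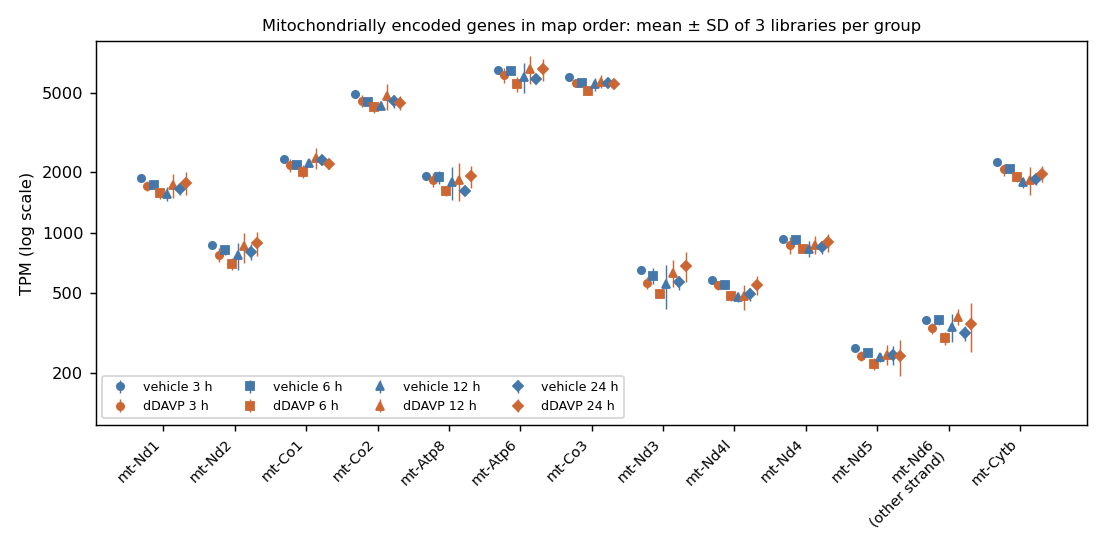
Level in TPM (log scale) of the 13 mitochondrial genes in map order, as mean ± SD of 3 libraries in each of the 8 groups. The order of genes is similar in each group, from a mean of 6184 TPM for mt-Atp6 down to 243.7 TPM for mt-Nd5, and at 6 h the dDAVP means lie below the vehicle means for each gene.

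For most members, the spread across libraries was small beside the range of mean levels over all members, though members of similar level overlapped. For mt-Atp6, the 3 vehicle libraries were at 6602, 6434 and 6470 TPM at 3 h, 6543, 6641 and 6040 TPM at 6 h, 5428, 5419 and 7178 TPM at 12 h, and 6078, 5462 and 5991 TPM at 24 h. The dDAVP libraries were at 5558, 6113 and 6652 TPM, 5802, 5752 and 4935 TPM, 6454, 7694 and 5615 TPM, and 5651, 7240 and 6671 TPM at the same times. The vehicle and dDAVP libraries overlapped at 3, 12 and 24 h and did not at 6 h. Uqcr11, by comparison, stayed between 610.5 and 756.1 TPM in the 24 libraries.

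The ratio of the summed TPM of mitochondrial to nuclear members compares both genomes within a library, and so does not depend on the scaling between libraries. It is a description without a test. The complexes in the 2 sums differ. The mitochondrial sum includes the complex V genes mt-Atp6 and mt-Atp8, whereas the name rule took no nuclear ATP synthase gene. A list of nuclear ATP synthase genes, described below, summed to 5133 to 6020 TPM per library and is outside the ratio. Over the 24 libraries the ratio ran from 2.158 to 2.762 with a median of 2.355. In vehicle, it was 2.517 ± 0.0693 (SD, n = 3) at 3 h, 2.446 ± 0.0928 at 6 h, 2.337 ± 0.227 at 12 h and 2.277 ± 0.0923 at 24 h. In dDAVP, it was 2.36 ± 0.132, 2.265 ± 0.061, 2.452 ± 0.284 and 2.379 ± 0.106 at these times.

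At 6 h, the ratio was 2.484, 2.513 and 2.340 in vehicle and 2.299, 2.301 and 2.195 in dDAVP, and these were the only groups of a time that did not overlap. The log2 difference, dDAVP minus vehicle, was -0.09 at 3 h, -0.11 at 6 h, 0.07 at 12 h and 0.06 at 24 h. These differences compare with pooled SDs of 0.0633, 0.0479, 0.152 and 0.0619, so that only the 3 h and 6 h values exceeded 1 SD by a clear margin, and the sign was lower at both early times and higher at both late ones. Leaving out single libraries gave -0.14 to -0.057 at 3 h, -0.14 to -0.088 at 6 h, -0.021 to 0.15 at 12 h and 0.033 to 0.10 at 24 h. The receptor share did not overlap between vehicle and dDAVP at 6 h either, and its part in the ratio was not tested. Reads assigned to nuclear copies, such as Gm29216 with a mean of 4024 TPM, are in neither sum.

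**Figure D3:**
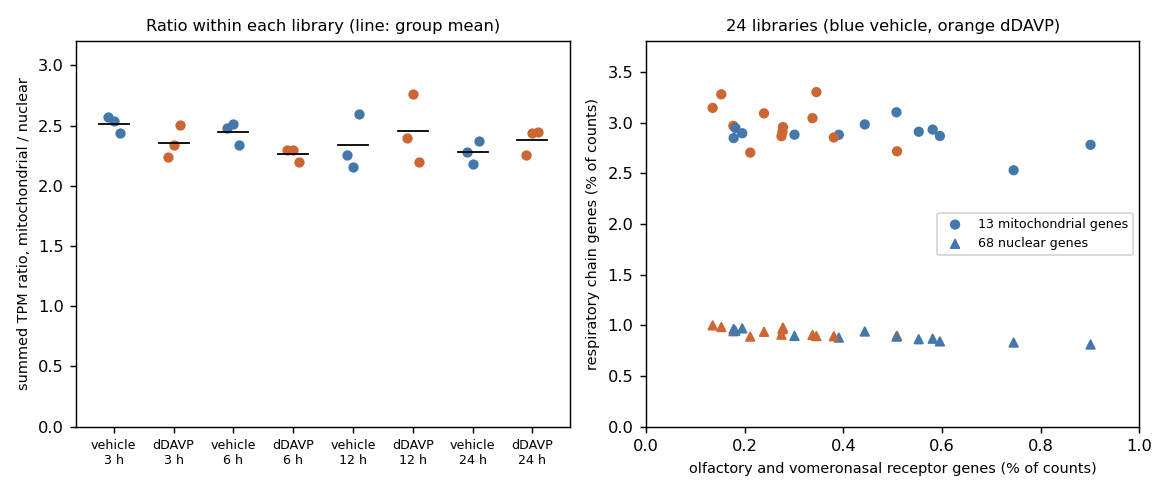
Left, ratio of the summed TPM of mitochondrial members to that of nuclear members in each library, by treatment and time, with a line at the mean of 3 libraries. The ratios run from 2.158 to 2.762, and vehicle and dDAVP overlap at 3, 12 and 24 h but not at 6 h. Right, share of counts on the mitochondrial and on the nuclear members against the receptor share, in each library.

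The first question of the design is how dDAVP changed gene expression at each time. On counts scaled by TMM (edgeR's normalization between libraries), dDAVP libraries at 6 h had higher levels of most respiratory chain genes than vehicle libraries, whereas on TPM the means of all 13 mitochondrial and of 50 of 63 nuclear members were lower. Of the 63 nuclear members tested, 56 were higher and 0 lower in edgeR's quasi-likelihood test (adjusted over all genes by the Benjamini-Hochberg method), and of the 13 mitochondrial members, 4 were higher and 0 lower. Among all 29743 genes tested, 38.1% were called in this comparison, 20.9% higher and 17.2% lower. The median log2 fold change was 0.48 for nuclear and 0.38 for mitochondrial members, against 0.32 for genes that reached 5 CPM (counts scaled to library size) in a group and -0.39 for all genes tested. The TMM factor, by which scaled counts are divided, averaged 1.106 in vehicle and 0.860 in dDAVP at 6 h. Before this scaling, the mitochondrial members held 2.94 ± 0.0370% (SD, n = 3) of counts in vehicle and 3.01 ± 0.123% in dDAVP. The nuclear members held 0.890 ± 0.0426 and 0.967 ± 0.0294%.

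By complex, 34 of 37 tested nuclear genes of complex I, 4 of 4 of complex II, 8 of 8 of complex III and 10 of 14 of complex IV were higher. Ndufa2, an accessory subunit of complex I, had the highest log2 fold change of the nuclear members called, 0.64 (SE 0.148, adjusted p = 0.0154). Its TMM-scaled level was 68.1, 69.3 and 84.5 CPM in vehicle at 6 h and 109.0, 124.7 and 111.5 CPM in dDAVP. Uqcrh, the hinge subunit of complex III, was at 70.3, 72.4 and 83.4 CPM in vehicle and at 107.2, 125.4 and 103.7 CPM in dDAVP, a log2 fold change of 0.57 (SE 0.134, adjusted p = 0.0157). For both genes the groups did not overlap on this scale. Ndufs4 rose by 0.56 (adjusted p = 0.0171) and Ndufb7 by 0.56 (adjusted p = 0.0175), both subunits of complex I.

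Among nuclear core subunits, the log2 fold change was 0.45 for Ndufs7, 0.51 for Ndufs8 and 0.46 for Ndufv1 in complex I, 0.40 for Sdha in complex II and 0.44 for Uqcrc1 in complex III. Cox4i1, a nuclear subunit of complex IV outside its catalytic core, was at 0.51. Ndufs1, the largest core subunit of complex I, was at 0.28 and did not pass (adjusted p = 0.0739). Ndufb2 was at -0.12 (adjusted p = 0.454). Its exons share bases with Braf, as those of Ndufa2 do with Tmco6, and the part of such overlaps was not tested.

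The mitochondrial members that passed at 6 h were mt-Co2 at 0.46 (SE 0.172, adjusted p = 0.0412), mt-Co3 at 0.42 (adjusted p = 0.0479), mt-Nd1 at 0.40 (adjusted p = 0.0490) and mt-Nd4l at 0.38 (SE 0.138, adjusted p = 0.0355). In CPM, mt-Co2 was at 3188, 3189 and 3632 in vehicle and at 4482, 5087 and 4180 in dDAVP, without overlap. The others were between 0.27 for mt-Nd6 and 0.42 for mt-Co1 and did not pass the test.

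These calls depended on the scale and on the receptor share. On TPM, the direction at 6 h was the opposite for the mitochondrial members: the mean of all 13 was lower in dDAVP, and for 12 of them (not mt-Co1) the dDAVP libraries lay below the vehicle libraries without overlap, as did 59.4% of all genes tested. For mt-Co2, the TPM values were 4481, 4511 and 4504 in vehicle and 4398, 4342 and 3933 in dDAVP. For nuclear members on TPM, 50 of 63 were lower on the mean, 16 lower without overlap and 1 (Ndufa2) higher without overlap, the latter against 0.884% of all genes. Ndufa2 was at 124.0, 126.8 and 134.6 TPM in vehicle and at 137.7, 136.7 and 134.6 TPM in dDAVP, which almost touch. Gm24245 took 43.2 to 46.8% of TPM in vehicle at 6 h and 49.0 to 51.7% in dDAVP.

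The receptor share at 6 h was 0.553, 0.581 and 0.443% in vehicle and 0.177, 0.135 and 0.276% in dDAVP, also without overlap. Across the series, the 6 libraries of lowest receptor share had 0.941 to 0.999% of counts on the nuclear members, and the 6 of highest receptor share 0.810 to 0.895%, with no overlap. The mitochondrial share was 2.85 to 3.28% in the former and 2.53 to 2.93% in the latter. With the receptor share added to the model as a covariate, 0 nuclear and 0 mitochondrial members were called at 6 h by edgeR, 0 of them also at an unadjusted p under 0.05, where 0.336% of all genes were called. Ndufa2 was then at 0.17 (adjusted p = 0.862), Uqcrh at 0.14 (adjusted p = 0.868) and mt-Co2 at 0.0031 (adjusted p = 1). The median of the mitochondrial members was -0.02. Without the covariate, the count for the nuclear members was 0 when dDAVP library 1, dDAVP library 2, vehicle library 1 or vehicle library 2 of 6 h was left out, 21 without vehicle library 3 and 31 without dDAVP library 3, and that for the mitochondrial members was 0 without any single library of 6 h. The part of the receptor share in these differences was not tested apart from this covariate, and the share and the treatment cannot be told apart at 6 h.

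**Figure D4:**
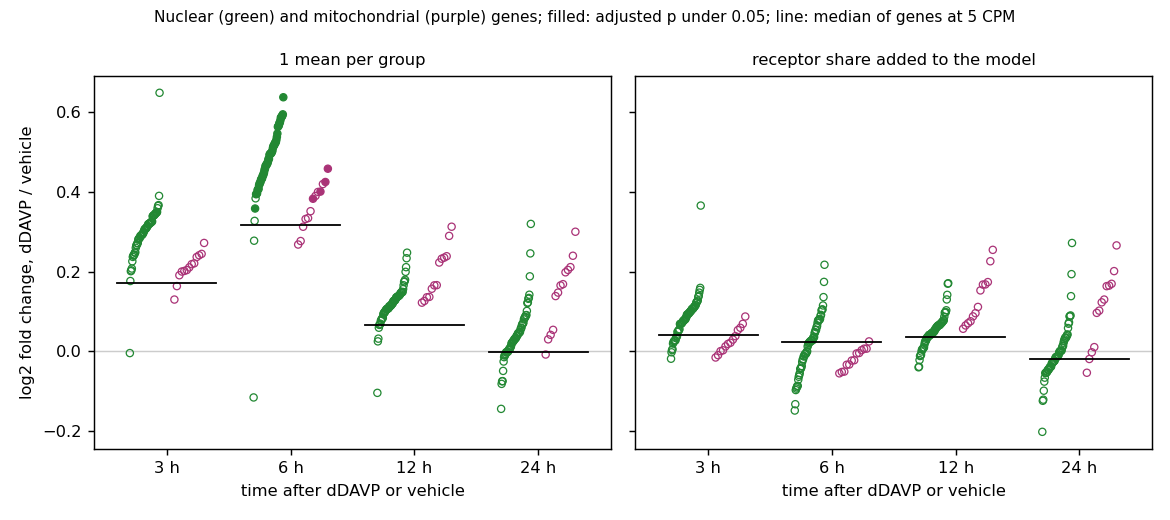
Log2 fold change of dDAVP against vehicle at each time for the tested nuclear (green) and mitochondrial (purple) members, ordered by value, without (left) and with (right) the receptor share in edgeR's model. Cox4i2 and Cox8c, at very low counts, are not drawn. Filled points pass an adjusted p of 0.05, the line is the median of genes that reach 5 CPM, and the nuclear median of 0.48 at 6 h on the left is 0.02 on the right. On TPM, the direction at 3 and 6 h was the opposite of the left panel for all 13 mitochondrial members.

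At the other times, no member was called. At 3 h, the median was 0.30 for nuclear and 0.21 for mitochondrial members, with 0 calls of 76 by edgeR against 0.484% of all genes called, and 34 nuclear and 0 mitochondrial members had an unadjusted p under 0.05. On TPM, however, the means of all 13 mitochondrial members were lower in dDAVP at 3 h. Of the 63 nuclear members, 42 were lower on the mean and 21 higher. At 12 h, the medians were 0.12 and 0.17, with 0 calls against 0.0773% of all genes and 0 members at the unadjusted threshold. At 24 h, they were 0.03 and 0.17, with 0 calls against 0.0841% of all genes. On TPM, 46 nuclear and 13 mitochondrial means were higher in dDAVP at 12 h, and 28 and 9 at 24 h. Adding the receptor share left the count at 0 at 3, 12 and 24 h, against 0.723, 0.296 and 0.35% of all genes, and the medians were 0.08 and 0.02, 0.05 and 0.11, and -0.01 and 0.12 for nuclear and mitochondrial members.

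Averaged over the 4 times, 58 nuclear members were higher and 1, Cox4i2, lower, and 10 mitochondrial members were higher by edgeR's test, against 33.1% of all genes called and 16.7% called higher. On log2(TPM + 1), limma instead called 3 nuclear members, all lower, and 0 mitochondrial members. The changes were small, with medians of 0.24 and 0.23 against 0.14 for genes at 5 CPM. Ndufs4 was at 0.28 (adjusted p = 0.0164), Ndufb6 at 0.27 (adjusted p = 0.0177), Cox7c at 0.30 (adjusted p = 0.0188) and mt-Nd1 at 0.25 (adjusted p = 0.0275), though limma on log2(TPM + 1) put mt-Nd1 at -0.00702. Cox4i2 was at -0.97 (adjusted p = 0.0324) on 1 to 16 counts per library. With the receptor share in the model, 0 members were called against 1.22% of all genes, and Ndufs4 was at 0.09 (adjusted p = 0.558). Leaving out 1 library moved the nuclear count between 0 and 61. It fell to 0 without vehicle library 3 of 24 h, to 1 without dDAVP library 2 of 6 h or library 3 of 12 h, to 2 without dDAVP library 3 of 3 h, and to 4 without dDAVP library 2 of 24 h. It was 14 without dDAVP library 2 of 3 h, 18 without dDAVP library 1 of 6 h, 19 without dDAVP library 2 of 12 h, 20 without vehicle library 1 of 3 h, 25 without library 1 of 12 h of either arm, 29 without vehicle library 2 of 6 h and 33 without vehicle library 3 of 6 h. The mitochondrial count ran from 0 to 13. It was 0 without any 1 dDAVP library of 12 h, dDAVP library 2 or 3 of 3 h, 1 or 2 of 6 h or 2 of 24 h, or vehicle library 1 of 3 h or 3 of 24 h. It was 1 to 4 without vehicle library 2 of 3 h, any vehicle library of 6 h, vehicle library 1 of 12 h, vehicle library 2 of 24 h or dDAVP library 3 of 24 h. The dDAVP effect at 24 h did not differ from that at 3 h for any member by edgeR's test of the difference, with 0 calls against 0.0202% of all genes and 2 nuclear members at an unadjusted p under 0.05. With the covariate it was again 0, against 0.215%.

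The second comparison of the design is that of times within an arm. In vehicle, 54 nuclear members and 1 mitochondrial member, mt-Co1, were higher at 24 h than at 3 h by edgeR's test and 0 were lower, against 38.0% of all genes called and 18.4% called higher. The medians were 0.44 for nuclear and 0.30 for mitochondrial members and 0.29 for genes at 5 CPM. The TMM factor in vehicle averaged 1.168 at 3 h and 0.939 at 24 h. Before this scaling, the mitochondrial members held 2.84 and 2.91% of counts at these times, and the nuclear members 0.843 and 0.937%. On log2(TPM + 1), limma instead called 8 nuclear members, of which 5 were higher, and 2 mitochondrial members, both lower, with mt-Co1 at -0.010. Calls came from each complex: 34 genes of complex I, 4 of complex II, 6 of complex III and 10 of complex IV. The receptor share fell over the same interval, from 0.629 to 0.226% on average, and with it in the model only Cox7a1 was called, against 0.699% of all genes. The nuclear count without the covariate was 1 without vehicle library 1 of 3 h, 6 and 7 without vehicle libraries 2 and 1 of 24 h, and 22 without vehicle library 2 of 3 h. The mitochondrial count was 3 without vehicle library 3 of 3 h and 0 without any other library of this comparison.

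In dDAVP, 0 members were called between 3 and 24 h, against 1.3% of all genes, with 9 nuclear and 2 mitochondrial members at an unadjusted p under 0.05. Once the receptor share was added, 1 member was lower, Uqcrq, at -0.37 (SE 0.0841, adjusted p = 0.00979), against 3.98% of all genes.

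The libraries of 12 and 24 h were pooled and compared with those of 3 and 6 h in each arm, a comparison added after the values had been seen. With the receptor share in the model, 2 members were higher in both arms, Cox7a1 and Ndufv3, and 2 lower in both, Uqcrq and Cox5a. Of all genes, 1.69% were called higher and 1.55% lower in both arms. In vehicle, these 4 were the only members called, where 4.28% of all genes were called. In dDAVP, 3 members were higher and 5 lower, against 4.49 and 6.87% of all genes (11.4% in either direction). Ndufa6, an accessory subunit of complex I, was also higher at 0.16 (adjusted p = 0.0182). The complex I subunits Ndufa1 at -0.23 (adjusted p = 0.00347), Ndufa11 at -0.17 (adjusted p = 0.00688) and Ndufa10 at -0.12 (adjusted p = 0.0275) were also lower. The members' share of calls in either arm was thus near that of all genes.

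Cox7a1 (ENSMUSG00000074218, chr7:30184144-30186078, plus strand) is the muscle isoform of a small subunit of complex IV. In vehicle, it was at 5.73, 6.05 and 4.97 TPM at 3 h, 7.41, 7.48 and 7.48 TPM at 6 h, 8.40, 11.8 and 12.2 TPM at 12 h, and 12.8, 12.9 and 10.1 TPM at 24 h. In dDAVP, it was at 7.26, 5.90 and 7.97 TPM, 8.42, 7.84 and 6.51 TPM, 9.90, 11.7 and 8.69 TPM, and 10.4, 12.3 and 9.18 TPM at these times. Each late library lay above each early library of its arm, although Cox7a1 was counted only 34 to 123 times per library. The log2 difference with the covariate was 0.70 (SE 0.151, adjusted p = 0.00537) in vehicle and 0.41 (SE 0.116, adjusted p = 0.0200) in dDAVP. Without it, Cox7a1 was at 1.08 (adjusted p = 0.000394) in vehicle and 0.41 (adjusted p = 0.316) in dDAVP. Between 3 and 24 h in vehicle alone, it rose by 1.54 without the covariate (SE 0.256, adjusted p = 0.000944) and by 0.97 with it (SE 0.222, adjusted p = 0.0343). The summed markers of skeletal and heart muscle were at 7.71 to 19.1 TPM over the libraries, and their part in the Cox7a1 difference was not tested.

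Ndufv3 (ENSMUSG00000024038, chr17:31520115-31531331, plus strand) encodes an accessory subunit of the NADH-binding module of complex I. In vehicle, it was at 76.1, 80.8 and 74.3 TPM at 3 h, 74.8, 78.5 and 78.2 TPM at 6 h, 94.6, 103.8 and 103.0 TPM at 12 h, and 99.9, 91.4 and 92.6 TPM at 24 h. In dDAVP, it was at 74.0, 77.9 and 74.4 TPM, 76.9, 77.2 and 78.1 TPM, 104.4, 111.8 and 110.7 TPM, and 92.6, 111.0 and 88.2 TPM. The early libraries of both arms sat together and the late ones above them, without overlap. With the covariate, Ndufv3 rose by 0.28 (SE 0.0612, adjusted p = 0.00655) in vehicle and by 0.27 (SE 0.0495, adjusted p = 0.00032) in dDAVP. Without it, the difference was 0.54 (adjusted p = 0.00085) in vehicle and 0.28 (adjusted p = 0.131) in dDAVP. At 12 h, the dDAVP libraries lay above the vehicle libraries, as for 1.7% of all genes, but dDAVP against vehicle was not called for this gene at any time except 6 h.

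Uqcrq (ENSMUSG00000044894, chr11:53427922-53430831, minus strand) encodes a small subunit of complex III. In vehicle, it was at 337.3, 335.3 and 366.4 TPM at 3 h, 354.5, 336.1 and 360.8 TPM at 6 h, 263.7, 294.0 and 262.2 TPM at 12 h, and 295.9, 294.3 and 280.4 TPM at 24 h. In dDAVP, it was at 351.2, 369.0 and 356.5 TPM, 354.8, 357.0 and 354.7 TPM, 283.5, 294.5 and 274.8 TPM, and 274.1, 324.3 and 316.6 TPM. Each late library lay below each early library of its arm. With the covariate, Uqcrq fell by 0.34 (SE 0.0659, adjusted p = 0.00211) in vehicle and by 0.40 (SE 0.0535, adjusted p = 7.2e-06) in dDAVP. Without it, Uqcrq was at -0.03 in vehicle and at -0.39 (adjusted p = 0.0472) in dDAVP, where it was the only member called and 3.05% of all genes were, and that count was 0 without any single dDAVP library other than library 1 of 3 h.

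Cox5a (ENSMUSG00000000088, chr9:57521274-57532426, plus strand) encodes a nuclear subunit of complex IV. In vehicle, it was at 276.3, 273.3 and 288.5 TPM at 3 h, 270.8, 267.9 and 274.6 TPM at 6 h, 230.3, 259.5 and 235.0 TPM at 12 h, and 248.1, 235.6 and 241.0 TPM at 24 h. In dDAVP, it was at 261.8, 285.4 and 275.9 TPM, 279.5, 251.0 and 252.9 TPM, 243.3, 233.8 and 232.2 TPM, and 239.9, 267.3 and 258.3 TPM. Late and early libraries overlapped in dDAVP and not in vehicle. With the covariate, Cox5a fell by 0.21 (SE 0.0554, adjusted p = 0.0273) in vehicle and by 0.22 (SE 0.045, adjusted p = 0.00101) in dDAVP. Without it, the value was 0.09 in vehicle and -0.21 (adjusted p = 0.462) in dDAVP, and Cox5a shares exon bases with Gm26631.

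**Figure D5:**
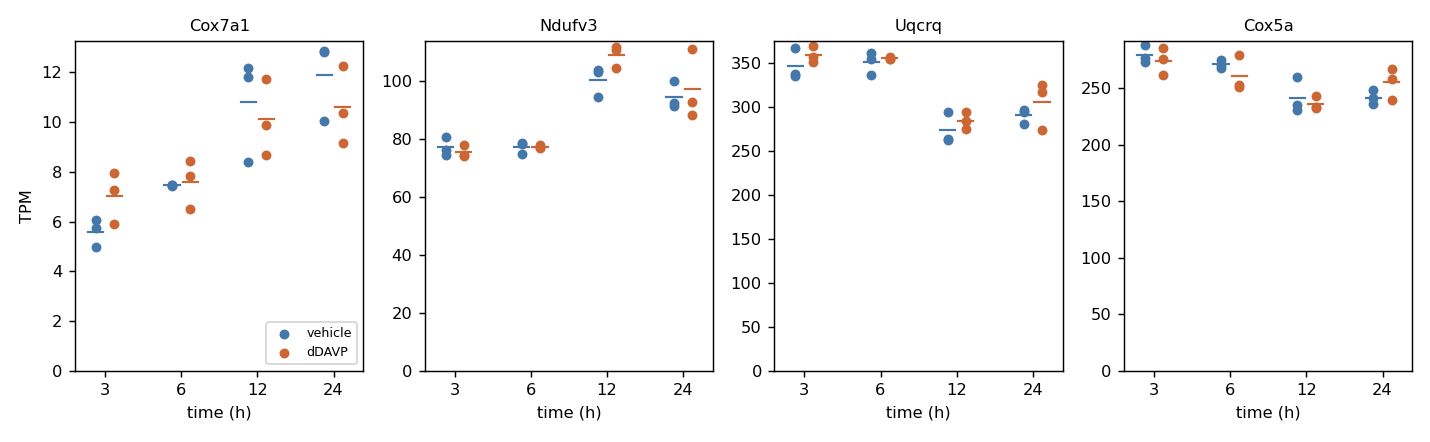
Level in TPM of Cox7a1, Ndufv3, Uqcrq and Cox5a in each library by treatment and time. The late libraries of Cox7a1 and Ndufv3 lie above the early ones and those of Uqcrq below them in both arms, and for Cox5a they overlap in dDAVP.

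Over all genes tested on TPM, 0.703% were higher and 2.29% lower without overlap between the late and early libraries of vehicle, and 1.57 and 0.878% in dDAVP. Beside the genes above, mt-Cytb was lower without overlap in vehicle. Its early vehicle libraries were at 2230, 2272 and 2218 TPM at 3 h and 2123, 2107 and 1982 TPM at 6 h, and its late ones at 1659, 1788 and 1901 TPM at 12 h and 1956, 1712 and 1903 TPM at 24 h. With the covariate, mt-Cytb was at -0.23 in vehicle (adjusted p = 0.0631) and -0.14 in dDAVP (adjusted p = 0.131), and did not pass. Ndufa13, Ndufa6 and Ndufb11, all of complex I, were higher without overlap in dDAVP. Neither without nor with the covariate was a mitochondrial member called between late and early libraries in either arm by edgeR. Other settings did call some. In vehicle, limma on log2(TPM + 1) called 2, the replicate block 1 and the covariate with a 5 CPM filter 1, and leaving out vehicle library 1 of 12 h gave 3. In dDAVP, the covariate with a 5 CPM filter called 2.

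Without the covariate, 21 nuclear members were higher at the late times in vehicle, against 19.5% of all genes called and 12.1% called higher, and 0 mitochondrial members were called. Beside Cox7a1 and Ndufv3, the lowest p-values belonged to the complex I subunits Ndufa13 at 0.44 (adjusted p = 0.00995) and Ndufb11 at 0.41 (adjusted p = 0.0107). The count was 2 without vehicle library 2 of 12 h, 4 without vehicle library 2 of 24 h or library 1 of 3 h, 6 without library 1 of 24 h, 7 without library 1 or 2 of 6 h, 10 without library 2 of 3 h, 46 without library 3 of 3 h and 56 without library 1 of 12 h. On TPM, the means of 34 of 63 nuclear and 12 of 13 mitochondrial members were lower late in vehicle, the others higher. The TMM factor in vehicle averaged 1.168, 1.106, 1.068 and 0.939 at 3, 6, 12 and 24 h. The difference between arms was tested directly. No member differed, without or with the receptor share in the model, against 1.57 and 1.08% of all genes, with 34 and 2 nuclear members at an unadjusted p under 0.05. Without vehicle library 1 of 12 h, 9 nuclear members were called for the difference between arms when the receptor share was not in the model.

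Other genes of oxidative metabolism were taken as lists chosen with earlier results known. On TMM-scaled counts at 6 h, where 20.9% of all genes were called higher and 17.2% lower, the lists differed in their counts. Of the ATP synthase genes tested, 15 of 16 were higher (median 0.50), among them the inhibitor Atpif1 at 0.61 (adjusted p = 0.0175) and the subunit Atp5d at 0.55 (adjusted p = 0.0180). Of the mitochondrial ribosomal protein genes, 67 of 78 were higher and 0 lower. Of the assembly factors of the chain, 25 of 45 were higher and 1 lower, with Sdhaf1, which helps to insert iron-sulphur clusters into complex II, at 0.60 (adjusted p = 0.0154). Of genes for upkeep and transcription of mitochondrial DNA, 13 of 24 were higher and 0 lower. Of the regulators of mitochondrial biogenesis, 3 of 9 were higher, among them the transcription factor Nrf1 at 0.39 (adjusted p = 0.0190). On TPM, where 59.4% of all genes were lower without overlap, the means of 10 of 16 ATP synthase genes, 70 of 78 ribosomal protein genes, 39 of 45 assembly factors, 23 of 24 upkeep genes and 9 of 9 regulators were lower in dDAVP. With the receptor share in edgeR's model, 0 genes of these lists were called at 6 h.

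Between late and early libraries with the covariate, 0 of the 16 ATP synthase genes were higher and 3 lower in dDAVP, and 0 of the 78 ribosomal protein genes were higher and 21 lower, where 4.49% of all genes were called higher and 6.87% lower. In vehicle, 0 ATP synthase genes were called, and 0 ribosomal protein genes were higher and 3 lower, where 4.28% of all genes were called in either direction. The cytochrome c gene Cycs, the electron carrier between complexes III and IV, was at -0.27 (adjusted p = 0.000119) in dDAVP and -0.33 (adjusted p = 0.000529) in vehicle. Among assembly factors, Sdhaf1 was at -0.41 (adjusted p = 2.82e-05) in dDAVP and -0.33 (adjusted p = 0.0103) in vehicle, and Sco2, a copper chaperone of complex IV, at -0.52 (adjusted p = 0.00011) and -0.46 (adjusted p = 0.0133). The coactivator gene Ppargc1a was higher in both arms, at 0.47 (adjusted p = 0.000136) in dDAVP and 0.38 (adjusted p = 0.0176) in vehicle, and its relative Pprc1 lower, at -0.37 (adjusted p = 9.62e-06) and -0.22 (adjusted p = 0.0457).

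Promoters of the nuclear members were read for motifs of factors known to act on respiratory chain genes and of CREB, the factor through which cyclic AMP, the messenger of vasopressin, acts on transcription. The RefSeq table, built on GRCm38, held a promoter for 54 of the 68 nuclear members and for 27025 genes in all, from 250 bases before to 50 after the start, and both strands were searched. The core of the NRF1 motif, CGCATGCG, was found for 5 members, Cox6a1, Ndufa11, Ndufa8, Uqcr11 and Uqcrc1, which is 9.26% against 2.07% of all genes, and a looser form, GCNTGCGC, which can overlap it, for 27.8 against 11.2%. The ETS and GABP motif CCGGAAG was found for 20.4% of members against 9.93% of all genes, and the YY1 motif AANATGGC for 24.1 against 6.96%. The full cyclic AMP element TGACGTCA was found for 4 members, Ndufa10, Ndufa11, Ndufb2 and Uqcrfs1, or 7.41% against 2.03%, and TGACG, which it contains, for 37 against 23%. A match describes letters in this window and is not a measured site. The shares were not tested, and the genes compared were not matched for base composition or level. All of these motifs but that of YY1 contain CG.

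The 250 bases before the start are shown for 3 of these members, Ndufa11 with both the cyclic AMP element and the NRF1 motif (chr17:56717512-56717761, plus strand), Cox6a1 with the NRF1 and ETS motifs (chr5:115348959-115349208, minus strand) and Uqcrfs1 with the cyclic AMP element (chr13:30545317-30545566, minus strand). Capitals mark the matches on either strand.
Ndufa11: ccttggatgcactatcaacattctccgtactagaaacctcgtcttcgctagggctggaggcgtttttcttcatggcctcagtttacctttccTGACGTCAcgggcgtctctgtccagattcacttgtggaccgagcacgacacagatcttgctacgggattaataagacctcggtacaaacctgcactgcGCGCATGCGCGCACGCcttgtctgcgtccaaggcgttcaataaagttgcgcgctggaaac
Cox6a1: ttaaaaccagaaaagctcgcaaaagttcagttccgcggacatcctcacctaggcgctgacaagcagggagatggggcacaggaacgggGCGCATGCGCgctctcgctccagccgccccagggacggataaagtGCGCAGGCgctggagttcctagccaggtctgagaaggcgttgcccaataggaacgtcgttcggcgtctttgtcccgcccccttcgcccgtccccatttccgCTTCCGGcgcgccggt
Uqcrfs1: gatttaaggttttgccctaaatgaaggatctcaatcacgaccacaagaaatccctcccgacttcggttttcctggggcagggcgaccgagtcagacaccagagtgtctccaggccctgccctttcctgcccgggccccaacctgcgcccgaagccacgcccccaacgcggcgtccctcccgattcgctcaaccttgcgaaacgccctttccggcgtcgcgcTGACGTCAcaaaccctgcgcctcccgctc

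The 4 members with the full cyclic AMP element were not called for dDAVP against vehicle at 3 h. No member of any kind was called at that time, so this does not bear on the element. At 6 h without the receptor share in the model, Uqcrfs1 was called higher, as all nuclear genes of complex III were, and Ndufb2 was not called. The part of the element in these values was not tested. Adjusted for the receptor share, the log2 fold change at 3 h was 0.08 for Ndufa10 (adjusted p = 0.885), 0.13 for Ndufa11 (adjusted p = 0.760), 0.15 for Ndufb2 (adjusted p = 0.833) and 0.05 for Uqcrfs1 (adjusted p = 0.947).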

How the data were processed

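The authors deposited 2 gene tables of 24 libraries, estimated counts and TPM. Per the submitters' processing notes, Salmon 0.14.10 and GRCm38.p6 were used. Its settings and strand option: not given in the sources used here. Counts were rounded, and 0 columns were left unused. Of the identifiers, 54346 were named from GENCODE M21 (Ensembl 96) and 86 were not. Members, gene lists and added comparisons were chosen with earlier results of these data known.

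Counts were tested with edgeR 4.0.16 (R 4.3.3): TMM factors (0.814 to 1.326), filterByExpr by group, 1 mean per group over all 24 libraries, quasi-likelihood F test and Benjamini-Hochberg adjustment at 0.05 over 29743 genes. The script was tested on simulated data. The simulation set no shift in receptor share between libraries, so it does not bear on the part of that share here. Depth was 17248060 to 27642311 estimated counts per library. Alternatives were DESeq2 1.42.0 and its size factors, filters, the receptor share as covariate, a replicate block, limma 3.58.1 on log2(TPM + 1) and log2(TPM + 0.1), only the libraries compared, and leaving out each library. Added later were TPM rescaled without 2 small RNA genes, counts merged with the nuclear copies, and the comparisons of late with early times.

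Named are all mitochondrial members, nuclear core subunits with Cox4i1, Cox5a and Cox5b, isoform families, untested members, the 3 highest and 3 lowest nuclear members, the 4 nuclear and 2 mitochondrial members of smallest p per comparison, and 2 genes per list. Members beyond this rule, such as Ndufb2, Ndufa6, Ndufa1, Ndufa11 and Ndufa10, were named after their values were seen. Replicate numbers were not used to pair the libraries in the main test, and whether they do was not settled: same-numbered ones correlated at -0.321 to 0.640. The lowest chi-square per gene between replicates was 2.43, so none was a duplicate. Tools were Python 3.11.15, pandas 2.3.3, numpy 2.4.6 and matplotlib 3.10.9.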

Additional observations from a re-analysis of the deposited data

How the results depend on the processing

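Most counts of called members depended on the processing, and the causes were not tested. With the receptor share as covariate, the numbers called were, for nuclear and mitochondrial members, 0 and 0 at 6 h, 0 and 0 for the mean dDAVP effect, 1 and 0 in vehicle at 24 against 3 h, 4 in vehicle late against early, 8 in dDAVP late against early and 1 in dDAVP at 24 against 3 h. With the covariate and a filter of 5 CPM they were 0 and 0, 0 and 0, 0 and 0, 4 and 1, 13 and 2, and 2. The 5 CPM filter alone gave 12 and 0 at 6 h, 35 and 1 for the mean effect, 22 and 0 in vehicle at 24 h, and in dDAVP 6 nuclear late and 4 at 24 h. Without a filter, the numbers were 23 and 0, 34 and 3, and 0 mitochondrial in vehicle at 24 h, with 12 in vehicle late and 0 in dDAVP late.

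DESeq2's size factors gave 0 mitochondrial members at 6 h, 39 and 5 for the mean effect, 0 mitochondrial in vehicle at 24 h, and 9 and 0 late in vehicle and dDAVP. DESeq2 itself gave 7 mitochondrial members at 6 h, 2 in vehicle at 24 h, and 0 nuclear members late in dDAVP. On log2(TPM + 1) and on log2(TPM + 0.1) alike, limma gave 4 nuclear (all lower) and 0 mitochondrial at 6 h, 3 (all lower) and 0 for the mean effect, 8 (5 higher) and 2 (both lower) in vehicle at 24 h, 9 and 2 in vehicle late, 8 nuclear in dDAVP late and 2 at 24 h. TPM rescaled without Gm24245 and Mir6236 gave 2 and 0 at 6 h, 9 and 0 for the mean effect, 27 and 0 in vehicle at 24 h, and in dDAVP 4 late and 3 at 24 h. Only the libraries compared gave 0 mitochondrial in vehicle at 24 h, 2 in vehicle late, 2 in dDAVP late, and 7 and 1 in dDAVP at 24 h. The log2 ratio at 24 h was 0.13 (0.133) by the median of members.

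Whether same-numbered libraries were paired was not settled: 5 of 12 pairs correlated above 0.1, and 5 of 12 correlated best with their own number. The replicate block gave 57 nuclear and 8 mitochondrial members at 6 h, 60 and 13 for the mean effect, 57 and 5 in vehicle at 24 h, and 40 and 1 in vehicle late, and moved no other count by over 1.5 times.

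Leaving out 1 library gave, for nuclear and mitochondrial members, 0 to 31 and 0 at 6 h, 0 to 61 and 0 to 13 for the mean effect, 1 to 58 and 0 to 3 in vehicle at 24 h, 2 to 56 and 0 to 3 in vehicle late, 0 to 1 and 0 in dDAVP late, and 0 to 9 and 0 for the difference between arms. The 1 call in dDAVP late was kept only without dDAVP library 1 of 3 h.

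Of 858 values of single genes, 620 kept direction and call, 159 lost the call, 30 gained it and 49 changed sign. With counts merged with the nuclear copies, all 36 values kept direction and call, those of mt-Co1 and mt-Co3 among them. At 6 h, mt-Nd4l was at -0.030 with covariate and filter and at -0.18 in limma on TPM, and mt-Co2 at -0.035 and -0.093. For the mean effect on TPM, mt-Nd4l was at -0.029 and mt-Nd1 at -0.00702 and -0.00703. In vehicle at 24 h, mt-Co1 was at -0.010 on TPM, and mt-Co3 at -0.028 with the covariate, -0.043 with covariate and filter, and -0.090 on TPM. In vehicle late, mt-Co3 was at -0.034, -0.035 and -0.053 in these settings, and Uqcrq at 0.033 with DESeq2's size factors, 0.044 with DESeq2 and -0.16 to 0.045 without 1 library. With covariate, 5 CPM filter, both, limma on TPM (+ 1, + 0.1) and rescaled TPM, vehicle late values were -0.21, -0.076, -0.21, -0.19, -0.19 and -0.083 for Cox5a (-0.033 to 0.18 without 1 library), -0.23, -0.14, -0.23, -0.24, -0.25 and -0.14 for mt-Cytb (-0.061 to 0.12, and -0.011 with only the libraries compared), and -0.17, -0.11, -0.17, -0.21, -0.21 and -0.11 for mt-Nd4l (-0.018 to 0.13).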
